A study of Mus musculus with 4 samples.

Results

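The CDK inhibitors and D cyclins of the embryonic mouse hindlimb were followed through single-cell transcriptomes of limb cells at E14.5. The genes were taken by symbol from the features of the count matrices: the inhibitors Cdkn1a, Cdkn1b, Cdkn1c, Cdkn2c and Cdkn2d, the D cyclins Ccnd1, Ccnd2 and Ccnd3, and the kinases Cdk4 and Cdk6, 10 of 32288 features in all. Every one of the 10 was present in the matrices under its own Ensembl identifier. The questions were at which level each gene was found in the cell types and chondrocyte zones of the limb, whether these levels differed when p21 was expressed in the cartilage, and whether the endogenous inhibitors differed from each other in that response.

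All embryos carried Gli1CreER, the Cre-dependent R26 tdTomato reporter and the TigreTRE-p21 transgene, which makes p21 in cells that also have the activator rtTA and receive doxycycline. Pan-Cart-p21MOE embryos (p21 embryos below) also carried Col2a1-rtTA, whose promoter is active in cartilage and drives the transgene in a mosaic of chondrocytes. Control embryos lacked Col2a1-rtTA. Both genotypes received doxycycline from E12.5 (1 mg/ml in the water) and tamoxifen (120 µg/g) at E13.5, so doxycycline, tamoxifen and the Cre line were shared by all groups. Hindlimb cells of 2 collections were sorted into a tdT+ fraction, the Gli1-lineage cells labelled since tamoxifen, and a tdT- fraction, which gave 4 libraries. According to the methods, each library mixed p21 and control cells of opposite sex, with male p21 cells and female controls in the first collection and the reverse in the second. Each cell was assigned to its genotype by its sex-linked transcripts, which gave 8 sums of cells (pseudobulks), 1 for each library and genotype. They rest on 2 collections per genotype, because the tdT+ and tdT- cells of a collection and genotype came from the same embryos. The study's text is not uniform on how many embryos these were, and its methods list a single p21 female, so the p21 cells of the second collection (784 tdT- and 664 tdT+ of 1779) may come from 1 embryo. The p-values below therefore measure the spread between 8 sums of cells, not between 8 independent litters.

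The products of these genes set the passage from G1 to S phase. D cyclins activate Cdk4 and Cdk6, which phosphorylate the retinoblastoma protein and so release E2F factors that switch on the genes of DNA replication. The Cip/Kip inhibitors p21 (Cdkn1a), p27 (Cdkn1b) and p57 (Cdkn1c) bind cyclin-CDK complexes of several kinds, and the INK4 inhibitors p18 (Cdkn2c) and p19 (Cdkn2d) bind Cdk4 and Cdk6 alone. In growth cartilage, chondrocytes proliferate in columns, leave the cell cycle and enlarge to hypertrophic cells, and Cdkn1c is known to be needed for that exit. Cdkn1c is also imprinted and is expressed from the maternal copy.

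In the GRCm38 annotation the inhibitor genes lie at chr17:29090976-29100727 on the plus strand (Cdkn1a), chr6:134920401-134925513 on the plus strand (Cdkn1b), chr7:143458339-143461050 on the minus strand (Cdkn1c), chr4:109660876-109667189 on the minus strand (Cdkn2c) and chr9:21288410-21291407 on the minus strand (Cdkn2d). The D cyclins lie at chr7:144929931-144939925 on the minus strand (Ccnd1), chr6:127125162-127152193 on the minus strand (Ccnd2) and chr17:47505051-47599691 on the plus strand (Ccnd3). Cdk4 is at chr10:127063534-127067920 and Cdk6 at chr5:3341485-3531008, both on the plus strand. None is on a sex chromosome. The gene bodies range from 2.71 kb for Cdkn1c to 190 kb for Cdk6. Levels are the UMIs of a gene per 1000000 UMIs summed over the same cells (CPM). Each UMI marks 1 molecule at its 3′ end, so levels of different genes were compared without a length correction. Whether reads from introns were counted is not given in the sources used here, which bears most on long genes such as Cdk6.

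The 4 libraries held 11945062 to 39435830 UMIs in 2541 to 6455 barcodes. After filters on depth, doublets and the sex call, 2767 cells remained, of which 1779 were p21 and 988 control, with between 98 and 784 cells per pseudobulk. No more than 1 barcode was shared by any pair of libraries. A sex call needed sex-linked transcripts and so favoured deep cells: of 2544 barcodes with 1000 to 3000 UMIs in tdT- replicate 2, 22 were called female and 5 male. The chondrocyte class held 657 cells, from named clusters with at least 6 of 9 marker genes raised. These were resting (229 cells), proliferative (335 cells in 2 clusters) or hypertrophic (93 cells). Unnamed clusters 11 (127 cells) and 22 (12 cells) had 8 of the 9 but failed other naming rules and were left outside the class. The hypertrophic class joins prehypertrophic and hypertrophic cells. Its cluster had 4 of 4 prehypertrophic markers raised, and Ihh, Col10a1 and Spp1 were among its leading genes. Heat shock genes, Hspa1a and Hspa1b, were among the leading genes of the resting cluster, and the hypertrophic cluster also had 4 of 5 endothelial markers raised. Chondrocyte pseudobulks held 28 to 198 cells and 606754 to 5442885 UMIs. The WPRE element, which is part of both the p21 transgene and the tdTomato reporter, checked the genotype calls in chondrocytes. WPRE was at 1048 and 1551 CPM in tdT- p21 chondrocytes and at 1193 and 1991 CPM in tdT+ p21 chondrocytes. In control chondrocytes it was at 122 and 56.0 CPM in tdT- and at 620 and 482 CPM in tdT+ libraries, so the genotypes did not overlap. The tdt feature, a check of the sort, was at 18.3 to 23.0 CPM in tdT+ and at 0.485 to 1.65 CPM in tdT- chondrocytes.

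Class levels and shares, here and below, are over control and p21 pseudobulks together unless a genotype is named. Among the inhibitors, Cdkn1c was the dominant transcript in every class of cells. It made up 93.6% to 97.6%, as class means, of the summed UMIs of the 5 inhibitors in the classes with at least 4 pseudobulks. Its level was 6241 ± 852 CPM (SD, n = 4 pseudobulks) in hypertrophic chondrocytes, 3042 ± 635 CPM (n = 7) in proliferative and 2859 ± 461 CPM (n = 8) in resting chondrocytes. The lowest hypertrophic pseudobulk (5274 CPM) was above the highest proliferative (3980 CPM) and the highest resting one (3484 CPM), whereas the proliferative and resting ranges overlapped. Muscle cells had a similar level to hypertrophic cells, 6032 and 7089 CPM in 2 pseudobulks. Both were p21, and no control pseudobulk of muscle had enough cells, here or for the genes below. The lowest levels among named classes were those of connective cells, 2312 ± 452 CPM (n = 8), and tenocytes, 1472 and 1626 CPM. Barcodes under 1000 UMIs, which may be droplets with free RNA or small cells, also held Cdkn1c. It was at 2974 to 3336 CPM there in the 4 libraries, above the mean of connective cells. A level of about that size in a cell type may hold free RNA, the part of which was not tested. The hypertrophic and muscle levels stand above that of these barcodes.

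Among the named classes Cdkn1a, the p53-responsive inhibitor p21, was highest in hypertrophic chondrocytes. Summed over the cells of a cluster, it was at 231 CPM in the hypertrophic cluster and 137 CPM in muscle. Unnamed cluster 19, which held p21 cells only, was higher, at 448 CPM. The level in hypertrophic pseudobulks was 259 ± 84.4 CPM (n = 4), with a range of 177 to 346 CPM. The 2 control values (317 and 346 CPM) were above the 2 p21 values (197 and 177 CPM). Resting chondrocytes had 37.6 ± 16.5 CPM (n = 8) and proliferative chondrocytes 30.5 ± 11.3 CPM (n = 7), and neither range reached the hypertrophic one. Among named classes with at least 4 pseudobulks, perichondrium or groove cells (7.99 ± 3.11 CPM, n = 7) and connective cells (4.76 ± 3.28 CPM, n = 8) were lowest. These 2 classes did not differ beyond their spread. Barcodes under 1000 UMIs held Cdkn1a at 10.7 to 48.2 CPM, and the mean resting and proliferative levels lay within that range. The hypertrophic cells were few and came from 4 pseudobulks, so their level describes these libraries.

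Cdkn1b, Cdkn2c and Cdkn2d were low everywhere and separated the classes little. Barcodes under 1000 UMIs held them at 22.1 to 29.5, 6.71 to 10.9 and 29.7 to 42.5 CPM, near most class levels of these genes. The part of free RNA in those levels was not tested. Cdkn1b was highest in the unnamed cluster 7, whose leading genes included Gdf5 and Pax9, at 43.3 ± 9.37 CPM (n = 6), and at 16.3 ± 4.50 CPM (n = 4) in hypertrophic chondrocytes. Its ranges in resting (7.03 to 33.8 CPM), proliferative (12.3 to 32.6 CPM) and hypertrophic cells (12.6 to 22.2 CPM) overlapped. Cdkn2c had 11.0 ± 6.70 CPM in resting, 7.32 ± 5.24 CPM in proliferative and 5.07 ± 4.37 CPM in hypertrophic chondrocytes. Those means also lie within each other's spread. Cdkn2d had 31.4 ± 13.2, 39.3 ± 12.3 and 35.9 ± 19.3 CPM in the same zones, and its lowest level in a named class with at least 4 pseudobulks was 19.3 ± 9.40 CPM, in osteoprogenitors.

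**Figure D1:**
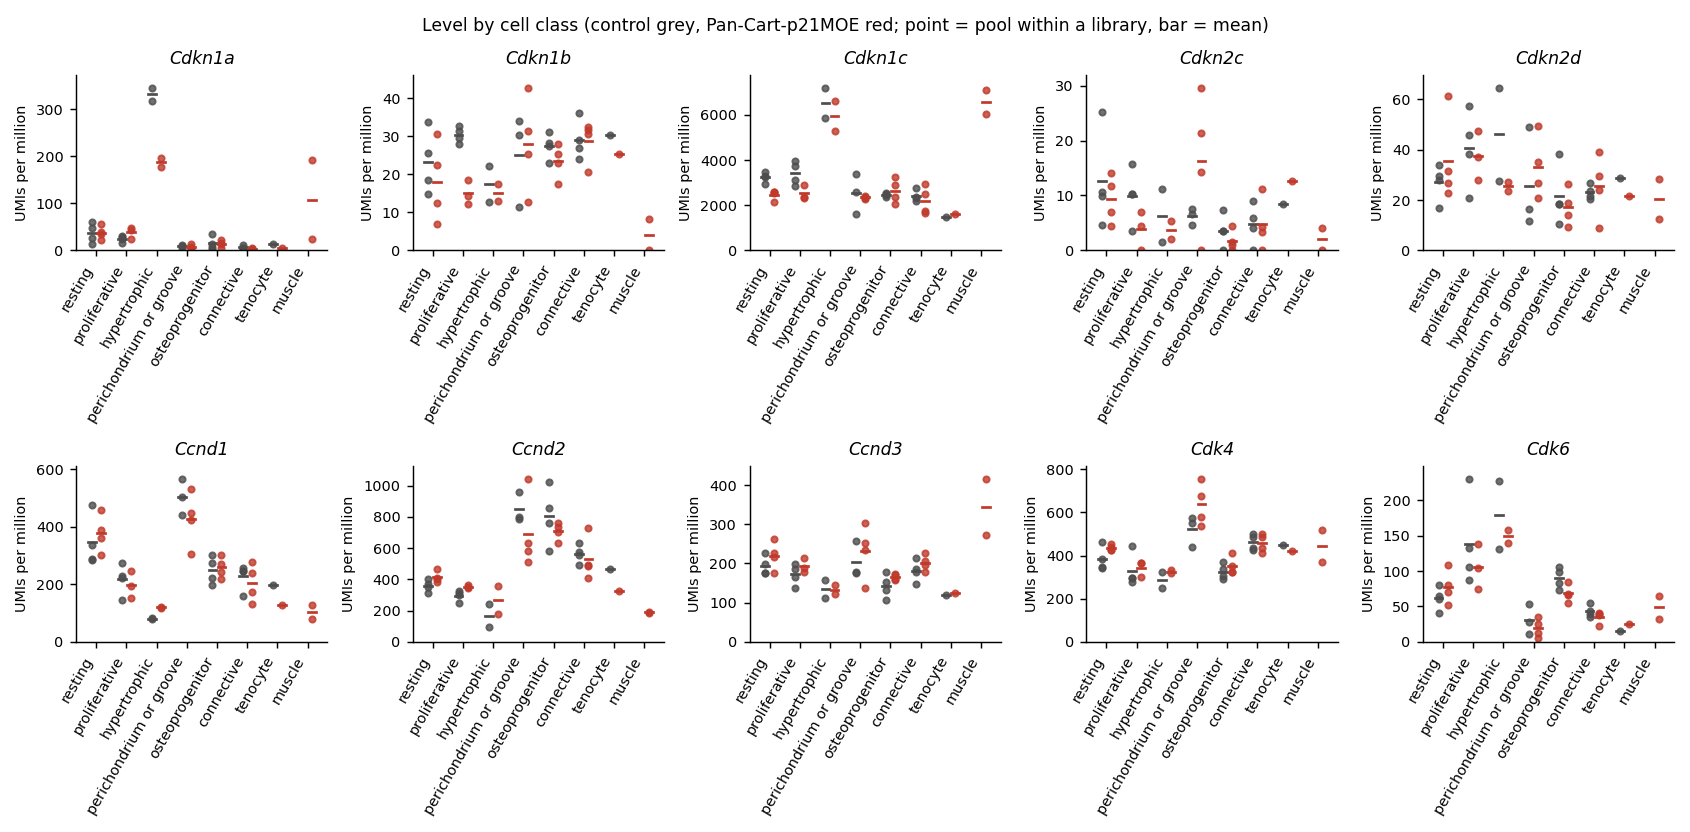
Level of the 10 genes (y axis, CPM) in the named cell classes, with 1 point for each pseudobulk of at least 10 cells, control in grey and Pan-Cart-p21MOE in red, and the mean as a short line. Cdkn1c is highest in hypertrophic chondrocytes and muscle, where Ccnd1 and Ccnd2 are lowest. Cdkn1a is highest in hypertrophic chondrocytes, with the 2 muscle values, both p21, at 24.7 and 192.

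Ccnd1 and Ccnd2 had their lowest levels where Cdkn1c was highest, in hypertrophic chondrocytes and muscle. Ccnd3 was also lower in hypertrophic than in resting chondrocytes, but it was highest in muscle. Ccnd1 was lowest in hypertrophic chondrocytes, at 99.9 ± 23.2 CPM (n = 4), and all 4 values (77.8 to 121 CPM) were below the lowest resting (284 CPM) and proliferative (146 CPM) values. Resting chondrocytes had 361 ± 73.8 CPM and proliferative chondrocytes 209 ± 47.3 CPM, without overlap. The highest Ccnd1 levels were in cluster 7, at 496 ± 65.9 CPM (n = 6), and in perichondrium or groove cells, at 460 ± 86.3 CPM (n = 7), and these neighbours overlapped. Ccnd2 was highest in perichondrium or groove cells, at 759 ± 197 CPM, and osteoprogenitors, at 757 ± 137 CPM, which did not differ beyond their spread. In cartilage Ccnd2 was at 387 ± 45.3 CPM in resting, 320 ± 37.5 CPM in proliferative and 216 ± 112 CPM in hypertrophic cells, each range overlapping the next. Ccnd3 varied least among the D cyclins in cartilage, from 207 ± 31.6 CPM in resting to 134 ± 21.3 CPM in hypertrophic chondrocytes. It was highest in the 2 muscle pseudobulks, both p21, at 274 and 416 CPM.

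As shares of the D cyclin UMIs, Ccnd2 had the largest mean in each named class with at least 4 pseudobulks. Its share was highest in osteoprogenitors (64.6 ± 5.25%) and connective cells (57.2 ± 3.66%). It was 45.2 ± 3.91% in proliferative and 45.8 ± 13.9% in hypertrophic chondrocytes. Resting chondrocytes held nearly equal shares of Ccnd2 (40.7 ± 3.54%) and Ccnd1 (37.5 ± 3.06%). The Ccnd1 share was lower in proliferative chondrocytes (29.2 ± 4.44%) and hypertrophic chondrocytes (22.7 ± 4.99%), where Ccnd3 took 25.6 ± 1.74% and 31.5 ± 11.0%. The 4 hypertrophic pseudobulks differed widely, with Ccnd3 between 23.3% and 47.6%.

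**Figure D2:**
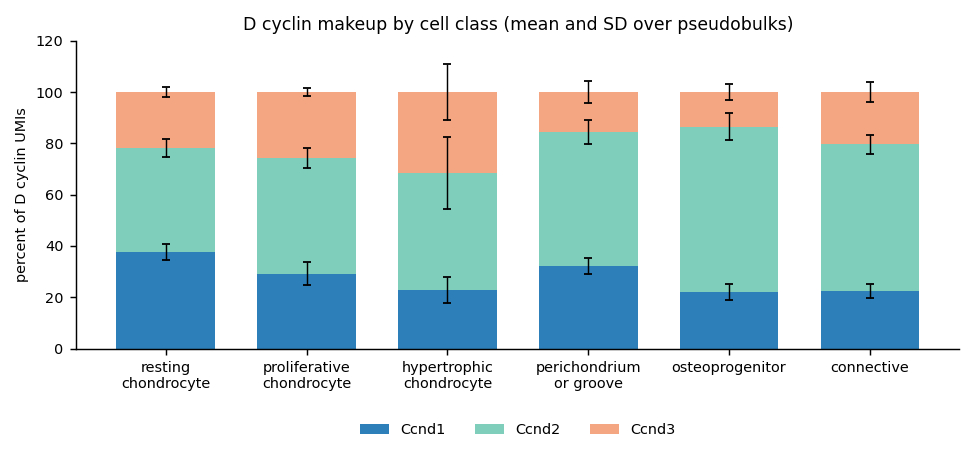
Share of D cyclin UMIs (y axis, percent) held by Ccnd1, Ccnd2 and Ccnd3 in 6 cell classes, as stacked means over pseudobulks, with the SD of each share at the top of its segment. Ccnd2 holds 64.6% in osteoprogenitors and 40.7% in resting chondrocytes, where Ccnd1 holds 37.5%.

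The 2 partner kinases differed in where they were found. Among the named classes Cdk4 ranged from 306 ± 37.6 CPM (n = 4) in hypertrophic chondrocytes to 589 ± 102 CPM (n = 7) in perichondrium or groove cells, with 410 ± 46.6 CPM in resting and 335 ± 60.6 CPM in proliferative chondrocytes. Unnamed cluster 6 was higher, at 605 ± 83.9 CPM (n = 4). Among the named classes Cdk6 was highest in hypertrophic (164 ± 43.8 CPM) and proliferative chondrocytes (124 ± 52.1 CPM), whose ranges overlapped. Summed over its cells, unnamed cluster 16 was at 175 CPM, with 98.7% of them from tdT+ replicate 2, against 156 CPM in the hypertrophic cluster. Cdk6 was at 69.8 ± 20.9 CPM in resting chondrocytes, 39.1 ± 9.05 CPM in connective cells and 24.2 ± 16.6 CPM in perichondrium or groove cells. Resting and perichondrial Cdk6 overlapped in single pseudobulks (40.1 to 109 against 5.21 to 53.6 CPM), whereas the hypertrophic values (131 to 228 CPM) lay above both.

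Over 37 control pseudobulks of 13 cell classes, log2(CPM + 1) of Cdkn1c and Ccnd2 had a Pearson correlation of -0.76, Cdk4 and Cdk6 of -0.74, Cdkn1c and Ccnd1 of -0.61, and Cdkn1a and Cdkn1c of 0.52. These points share 4 libraries and the depth of their cells, so the values are descriptions. Among 9456 genes with a mean of at least 10 CPM, those most like Cdkn1a over the same points were Btg2 (r = 0.78), Sdc4 (0.77) and Cd9 (0.74). For Cdkn1c they were Gnb4 (0.77), Tbrg1 (0.75) and Cebpd (0.74), and for Cdkn1b they were Chd4 (0.78), Zfp280c (0.74) and Phrf1 (0.74). Cdkn2d had lower values, led by Fbxo5 (0.59), Ctu2 (0.58) and Cenpw (0.58). Cdkn2c, whose mean was 8.49 CPM, came nearest to Ccnb1 (0.61), a mitotic cyclin, Tubb4b (0.59) and Fam117a (0.58). Ccnd2 had the closest neighbours of all 8 genes compared, Fbn2 (0.90), Cacna1g (0.88) and L3mbtl3 (0.87). For Ccnd1 they were Btf3l4 (0.79), Cbx3 (0.77) and Tbx4 (0.75), and for Ccnd3 they were Fam216a (0.72), Gpi1 (0.65) and Gm10260 (0.64).

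The inhibitors differed in how their levels varied with the cell cycle. Chondrocytes were ranked by the share of their UMIs in S phase and G2M genes, which include none of the 10 genes, and divided at 0.285% and 0.485% into 3 groups of low, middle and high share. A group is a range of a score and not a cell type, since 103 and 56 of 657 cells lay within 10% of the lower and the upper limit. Cdkn2c was found almost wholly in the high group. In control cells it was at 3.51 ± 4.59, 1.21 ± 1.57 and 23.3 ± 6.79 CPM in the low, middle and high group (n = 4), and in p21 cells at 0, 0.948 ± 1.11 and 16.6 ± 4.50 CPM (n = 3, 4 and 3). It was higher in the high than in the low group in 6 of 6 pseudobulks with both, by 3.35 ± 1.35 (SD) on the log2(CPM + 1) scale. Cdkn2d was also higher in 6 of 6, by 1.09 ± 0.76, with control levels of 26.3, 26.1 and 55.7 CPM. Cdkn1c was higher in 1 of 6 and Cdkn1a in 2 of 6. Ccnd2 was lower in the high group in 5 of 6 pseudobulks, with control levels of 276 ± 44.6, 418 ± 104 and 234 ± 34.2 CPM.

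**Figure D3:**
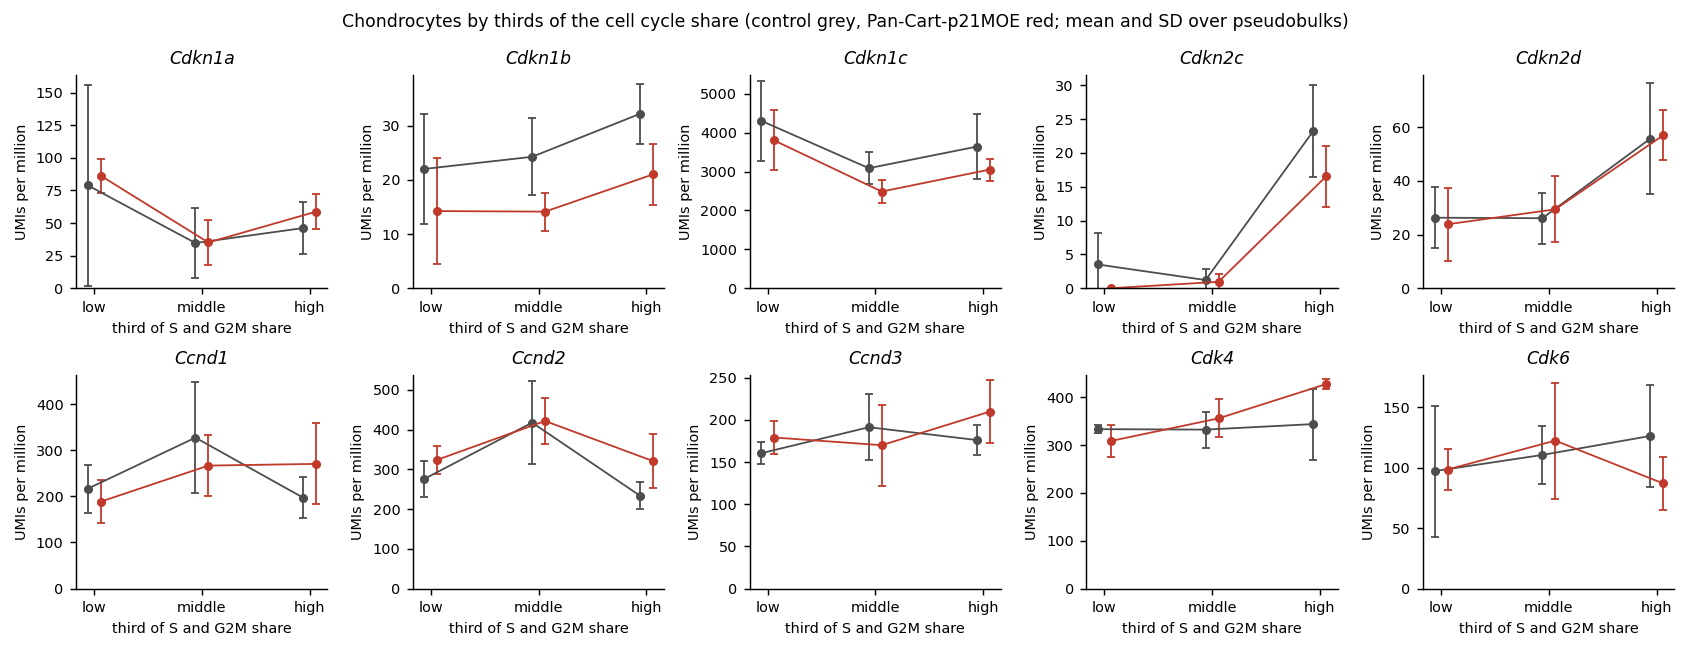
Level of the 10 genes (y axis, CPM) in chondrocytes of the low, middle and high group of the share of UMIs in S phase and G2M genes, as the mean and SD over pseudobulks of control (grey) and Pan-Cart-p21MOE (red) cells, with error bars cut at 0. Cdkn2c is near 0 outside the high group, where it is at 23.3 in control and 16.6 in p21 cells.

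Expression of the p21 transgene in cartilage was compared with control next. In chondrocytes none of the 10 genes passed (edgeR quasi-likelihood fit, threshold 0.05 after adjustment), where 85 of 10610 genes did (0.801%), 7 higher and 78 lower. At an unadjusted p under 0.05 there were 4 of the 10, Cdkn1b, Cdkn1c, Cdkn2c and Ccnd2, beside 1134 of the 10610 genes, and DESeq2 and limma voom called none of the 10 either. The count of 85 was 29 to 110 when 1 library or pseudobulk was left out, lowest without the p21 cells of tdT+ replicate 2. The smallest adjusted p was 0.148, for Cdkn1b. In the 10 genes the median log2 difference between p21 and control was -0.00087, beside -0.0056 over all genes tested, with 5 genes higher and 5 lower.

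Cdkn1a itself, the endogenous gene of the expressed inhibitor, was at 56.8 and 103 CPM in tdT- and 22.1 and 34.5 CPM in tdT+ control chondrocytes. In p21 chondrocytes it was at 67.6 and 68.5 CPM in tdT- and 67.5 and 58.7 CPM in tdT+ libraries. The p21 values lay inside the range of the controls, with a log2 difference of 0.32 ± 0.28 (SE, adjusted p = 0.767, edgeR) that was 0.03 to 0.81 when 1 library or pseudobulk was left out. According to the paper, reads of the transgene fall mostly on WPRE, so Cdkn1a counts are not a check of the transgene. Whether some transgene reads were counted as Cdkn1a in p21 cells was not tested.

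Cdkn1b (p27) was lower in p21 chondrocytes in all 4 libraries. In controls it was at 28.6 and 25.5 CPM in tdT- and 29.7 and 24.6 CPM in tdT+ libraries, and in p21 cells at 9.89 and 14.51 CPM in tdT- and 22.5 and 19.1 CPM in tdT+ libraries. The groups did not overlap, which held for 6.74% of all genes tested. The log2 difference was -0.74 ± 0.21 (SE, adjusted p = 0.148, edgeR). The tdT- p21 value of replicate 1 rests on 6 UMIs.

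Cdkn2c (p18) had the largest difference of the 10 genes, from few UMIs. In controls it was at 10.2 and 8.37 CPM in tdT- and 13.4 and 11.5 CPM in tdT+ libraries, and in p21 cells at 4.94 and 4.59 CPM in tdT- and 5.84 and 7.88 CPM in tdT+ libraries. The groups did not overlap, but each sum held only 3 to 31 UMIs. The log2 difference was -0.91 ± 0.27 (SE, adjusted p = 0.191, edgeR). Of a list of G2M genes, 9 of 50 tested fell in p21 chondrocytes and none rose, with a median of -0.69 and Ndc80 (-1.74), a kinetochore protein, and Top2a (-1.09), a topoisomerase, among them. The Cdkn2c difference thus stands beside a lower G2M signal in the same cells, and the part of that in its level was not tested. Within the high group of cycle share the 2 genotypes were at 23.3 ± 6.79 and 16.6 ± 4.50 CPM.

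Cdkn2d (p19), the other INK4 gene, overlapped between the genotypes: controls had 22.2 to 52.1 CPM and p21 cells 32.3 to 43.4 CPM. Its log2 difference was -0.07 ± 0.22 (SE). Ccnd2 was higher in p21 chondrocytes in all 4 libraries. Its levels were 304, 241, 315 and 308 CPM in controls (tdT- replicates 1 and 2, then tdT+ replicates 1 and 2) and 394, 329, 344 and 365 CPM in p21 cells, without overlap. The means were 292 ± 34.3 and 358 ± 28.2 CPM (SD, n = 4), and the log2 difference of 0.26 ± 0.11 (SE) had an adjusted p = 0.387 in edgeR's test. Ccnd1 (231 ± 46.8 and 247 ± 24.0 CPM), Ccnd3 (175 ± 22.1 and 189 ± 17.2 CPM), Cdk4 (342 ± 44.5 and 365 ± 19.2 CPM) and Cdk6 (116 ± 27.6 and 109 ± 23.4 CPM) overlapped between control and p21, with log2 differences from -0.16 to 0.09.

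**Figure D4:**
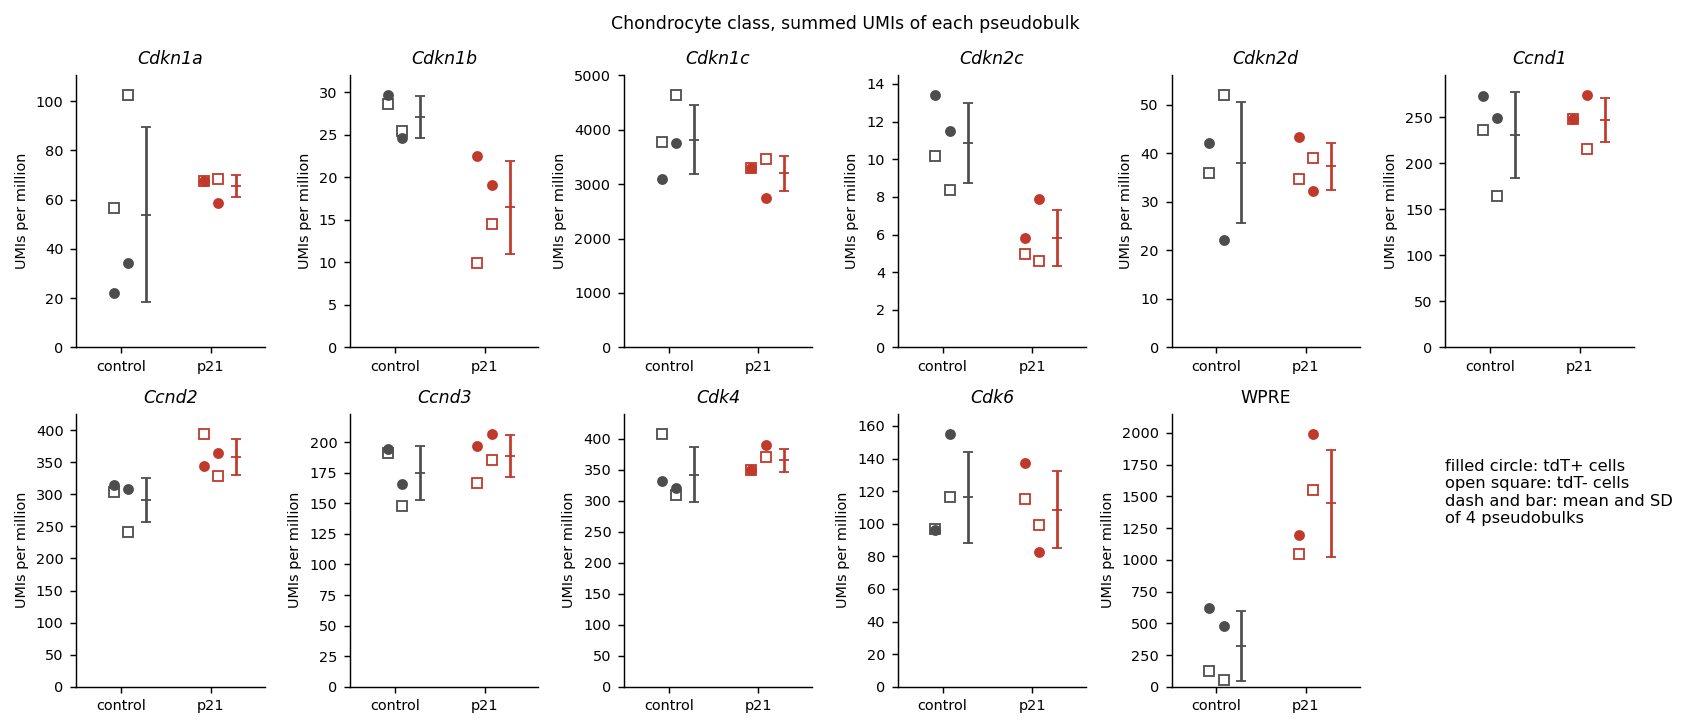
Level of the 10 genes (y axis, CPM) in control and Pan-Cart-p21MOE chondrocytes, and of WPRE in the last panel, with 1 point for each library and genotype (filled circle tdT+, open square tdT-) and the mean with SD beside it. Cdkn1b, Cdkn2c, Ccnd2 and WPRE have groups that do not overlap, and the other 7 genes overlap.

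Cdkn1c (p57) was at 3767 and 4639 CPM in tdT- and 3087 and 3757 CPM in tdT+ control chondrocytes. It was at 3303 and 3461 CPM in tdT- and 3286 and 2736 CPM in tdT+ p21 chondrocytes, lower in 3 of 4 libraries, and the log2 difference was -0.28 ± 0.09 (SE, adjusted p = 0.241, edgeR). By zone, in resting chondrocytes the controls had 3254 and 3484 CPM in tdT- and 2941 and 3311 CPM in tdT+ libraries, and the p21 cells 2569 and 2608 CPM in tdT- and 2166 and 2544 CPM in tdT+ libraries. Every p21 value was below every control value, and the log2 difference was -0.45 ± 0.08 (SE, adjusted p = 0.143, edgeR), the 1 gene of the 10 with an unadjusted p under 0.05. The test covered 9 of the 10, since Cdkn2c did not pass the low-count filter, and called none of 6498 genes in resting cells (0%), with 406 at an unadjusted p under 0.05. Groups that do not overlap were found for 4.32% of those genes. DESeq2 called 5 genes, of which Cdkn1c was 1 (adjusted p = 0.0178), and edgeR without a filter on low counts gave an adjusted p = 0.00594, so the call depends on the choice of test. Over all alternatives that left out 1 library or pseudobulk the log2 difference was -0.49 to -0.39, and the smallest adjusted p was 0.0864. As an imprinted gene, Cdkn1c is read from 1 parental copy, and no allele was resolved here.

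In proliferative chondrocytes, where 3 p21 pseudobulks were compared with 4 controls, none of the 10 genes passed the test, and 68 of 10025 genes did (0.678%). At an unadjusted p under 0.05 edgeR had 3 of the 10, Cdkn1a, Cdkn1b and Cdkn1c, beside 907 of the 10025 genes, and DESeq2 called none. The count of 68 was 1 without tdT- replicate 2 and 5 without tdT+ replicate 2. Cdkn1c was at 3754, 3980, 3125 and 2846 CPM in controls and 2888, 2378 and 2322 CPM in p21 cells, with a log2 difference of -0.40 ± 0.10 (SE, adjusted p = 0.160). The groups overlapped by 1 control value. The 2 clusters of this class held Cdkn1c at 2136 and 4044 CPM over both genotypes. They held 80 and 57 control cells and 142 and 56 p21 cells. The part of this mix in the Cdkn1c difference was not tested. Cdkn1b was at 28.04 to 32.6 CPM in controls and 12.3 to 18.5 CPM in p21 cells, without overlap, with a log2 difference of -0.98 ± 0.25 (SE, adjusted p = 0.148). Groups did not overlap for 8.43% of all genes tested. Cdkn1a was at 15.3 to 30.5 CPM in controls and 24.6, 43.3 and 47.6 CPM in p21 cells, with a log2 difference of 0.72 ± 0.30 (adjusted p = 0.465). With the collection number as a block it was 0.49 ± 0.25, no longer under an unadjusted 0.05. Ccnd2 was at 251 to 323 CPM in controls and 342 to 360 CPM in p21 cells.

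In hypertrophic chondrocytes only 2 pseudobulks per genotype had at least 10 cells, so no test was made. Cdkn1a was at 317 and 346 CPM in controls, both from tdT- libraries, and at 197 and 177 CPM in p21 cells, from a tdT- and a tdT+ library. The order of the genotypes was opposite to that in proliferative cells, and fraction and genotype cannot be told apart for the tdT+ value. Ccnd1 was at 77.8 and 82.1 CPM in controls and 121 and 119 CPM in p21 cells. Cdkn1c was at 5850 and 7211 CPM in controls and 6627 and 5274 CPM in p21 cells, which overlapped. The test of whether the p21 difference itself varied between proliferative and resting cells called none of 9414 genes (0%), with 376 at an unadjusted p under 0.05. Its log2 value for Cdkn1a was 1.00 ± 0.47 (SE, adjusted p = 1.00), and for Cdkn1c 0.01 ± 0.16.

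**Figure D5:**
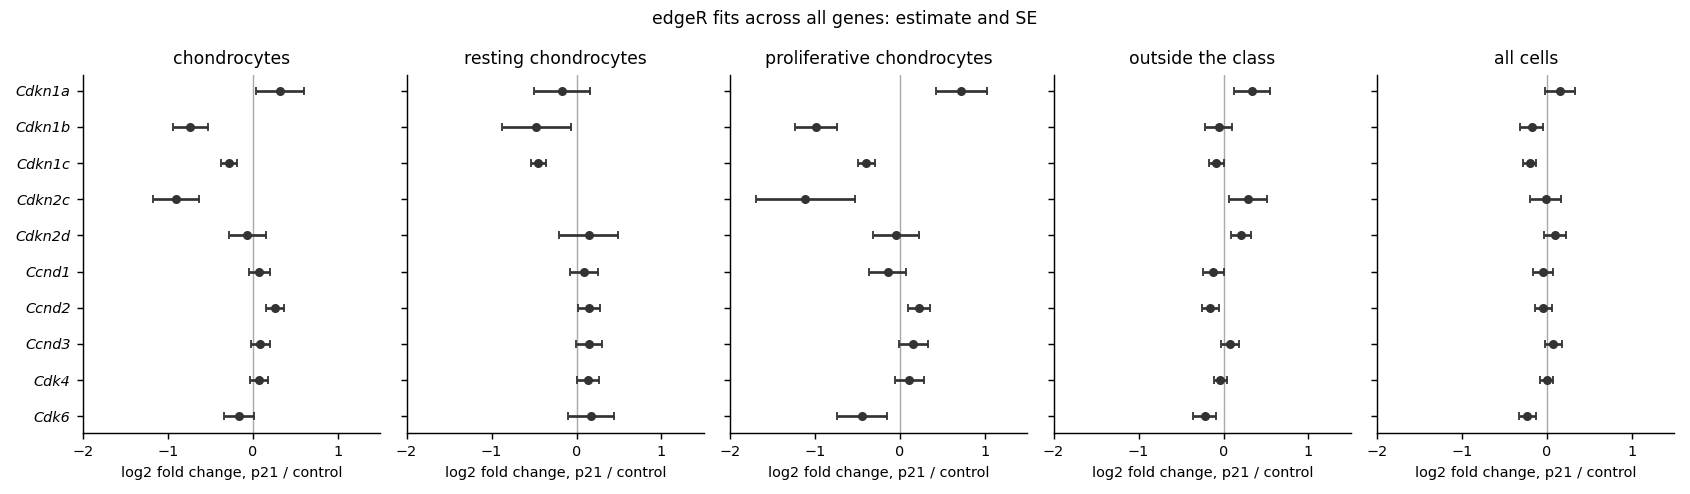
Log2 fold change of Pan-Cart-p21MOE against control (x axis) with SE for the 10 genes in 5 sets of cells, from the edgeR fits over all genes. Cdkn1b, Cdkn1c and Cdkn2c lie below 0 in chondrocytes and lie near 0 or above it outside the class, and Cdkn2c was not tested in resting chondrocytes.

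Outside the chondrocyte class none of the 10 passed the test in the 2110 other cells, where 1 of 14139 genes did (0.00707%), and none had an unadjusted p under 0.05. Cdkn1b differed by -0.06 ± 0.16 and Cdkn1c by -0.08 ± 0.09 on the log2 scale. Cdkn1a (0.33 ± 0.21), Cdkn2c (0.29 ± 0.22) and Cdk6 (-0.22 ± 0.13) had estimates as large as some of those in chondrocytes. These cells were not free of the transgene or of cartilage signal: WPRE was higher in p21 than in control cells in 4 of 4 libraries (206 and 293 against 70.2 and 72.5 CPM in tdT-, 637 and 717 against 497 and 405 CPM in tdT+), and Col2a1, the cartilage collagen, was at 1367 to 2270 CPM. Unnamed clusters 11 and 22, which carry chondrocyte markers, are among them. So is a cluster of 36 p21 cells, 94.4% of them from tdT- replicate 2, with Cdkn1a at 448 CPM. Outside the class Cdkn1a was at 38.5 CPM in p21 cells of that library. The other p21 pseudobulks were at 16.1 to 26.9 CPM and the controls at 18.5 to 25.0 CPM. Over all cells, 4 of 14533 genes passed (0.0275%) and none of the 10. Cdkn1c and Cdk6 had an unadjusted p under 0.05 (log2 -0.20 ± 0.07 and -0.23 ± 0.10) and an adjusted p of 0.563 and 0.696 (edgeR). The interaction of genotype and cell class, a test of whether the p21 difference was larger in chondrocytes, called 5 of 13536 genes (0.0369%) and none of the 10. Its values were 0.43 ± 0.11 (SE, adjusted p = 0.222) for Ccnd2, -1.19 ± 0.40 (adjusted p = 0.494) for Cdkn2c, both with an unadjusted p under 0.05, and -0.59 ± 0.28 (adjusted p = 0.758) for Cdkn1b. A difference particular to cartilage was therefore not shown for any of them.

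The responses of the 5 inhibitors were set against each other within each pseudobulk, as the difference of log2(CPM + 1) between a pair of inhibitors. None of the 10 pairs passed after adjustment in an exact permutation test over 4 p21 and 4 control pseudobulks (two-sided, smallest possible p = 0.0286). The smallest raw p was 0.0571, for Cdkn2c against Cdkn2d (log2 -0.83, adjusted p = 0.214), where Cdkn2c was lower relative to Cdkn2d in 4 of 4 libraries. Cdkn1a was higher relative to Cdkn1b (1.24) and to Cdkn2c (1.31) in 4 of 4 libraries, both with an exact p = 0.0857 and an adjusted p = 0.214. Cdkn1b was lower relative to Cdkn2d in 4 of 4 libraries (-0.76), and Cdkn1c higher relative to Cdkn2c in 4 of 4 (0.56, exact p = 0.171). In these 5 of 10 pairs the direction was shared by the 4 libraries, for which the smallest p of a sign test is 0.125. With a pseudocount of 5 in place of 1, Cdkn1a against Cdkn2c and Cdkn1c against Cdkn2c (0.31) held in 3 of 4 libraries, which left 3 pairs. Cdkn1b and Cdkn2c did not separate (0.07, exact p = 0.771).

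The tdT+ and tdT- fractions were compared with genotype as a covariate. Among chondrocytes none of the 10 genes passed, and 3 of 10610 genes did (0.0283%), or 10 with the embryo pool as a block. Cdkn1a was lower in tdT+ chondrocytes by -0.75 ± 0.28 on the log2 scale (SE), Cdkn1c by -0.24 ± 0.09, and Ccnd1 was higher by 0.28 ± 0.12. These were the 3 of the 10 with an unadjusted p under 0.05. Adjusted over the 10610 genes, their p were 0.864, 0.864 and 0.910 (edgeR). Leaving out 1 pseudobulk gave -0.97 to -0.43 for Cdkn1a, -0.30 to -0.15 for Cdkn1c and 0.18 to 0.37 for Ccnd1. Hypertrophic cells, which hold the most Cdkn1a, were 0% and 4.26% of tdT+ control chondrocytes and 13% and 26.2% of tdT- control chondrocytes. In p21 cells they were 5.88% and 8.40% in tdT+ and 21.4% and 19.2% in tdT- libraries. The part of these shares in the Cdkn1a difference was not tested. Outside the class 139 of 14139 genes passed (0.983%), or 229 with the embryo pool as a block, and again none of the 10, the smallest adjusted p being 0.414, for Cdkn2d. The test of whether the p21 difference varied with the fraction called none of 11498 genes (0%), and at an unadjusted p under 0.05 there were 318. Its largest value among the 10 was 1.41 ± 0.43 for Cdkn1a (SE, adjusted p = 1.00), the 1 gene of the 10 with an unadjusted p under 0.05. In none of the comparisons other than that of resting chondrocytes did DESeq2 call any of the 10.

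Genes that work with these 10 were taken from lists for the G1/S network, S phase, G2M, p53 targets and dissociation stress. In the chondrocytes 2 of 39 G1/S network genes fell and none rose (median log2 difference -0.27, beside -0.0056 over all genes): Fbxo5, an inhibitor of the anaphase-promoting complex (-1.21, adjusted p = 0.0133, edgeR), and E2f8, a repressing E2F factor (-1.80, adjusted p = 0.0133). In the S phase list 3 of 43 fell, Gmnn (-0.94), an inhibitor of replication licensing, and E2f8 among them, with a median of -0.36, and in the G2M list 9 of 50 fell, Hjurp (-0.98) among those with the lowest p. Of 17 p53 targets tested none passed. The lowest p were those of Rrm2b (-0.38 ± 0.14) and Tnfrsf10b (0.72 ± 0.32), and the median was 0.11, beside a log2 value of 0.32 ± 0.28 for Cdkn1a. Of 26 stress genes 1 fell, Hsph1, a heat shock protein (-1.46, adjusted p = 0.00767), with a median of -0.29.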

How the data were processed

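The deposited files hold raw UMI counts, which the authors made from 10x 3′ libraries with Cell Ranger 7.2.0 on GRCm38 (mm10) with added tdt, CreERT2 and WPRE features. The 10 genes and the gene lists were chosen with earlier results of these data known. Barcodes with at least 1000 UMIs, 500 genes and at most 10% mitochondrial UMIs were kept. Cells with both sexes' transcripts were removed, as were the 5% highest scrublet scores, and genotype followed from the sex call and collection (at least 2 sex-linked UMIs, 80% from 1 sex). Leiden clustering (resolution 1.0, scanpy 1.11.5, 2000 variable genes without cycle-correlated ones) gave 22 clusters, named from markers by thresholds set after the clusters were seen. Counts were summed per library and genotype and tested with edgeR 4.0.16 (R 4.3.3; quasi-likelihood, TMM, filterByExpr, Benjamini-Hochberg, sorted fraction as covariate). The interactions between cell classes or zones had the pool as a block. SE is the log2 fold change divided by the square root of F. No library column was unmapped. Named genes were the 10 genes, the transgene features, up to 3 genes per list with the lowest p past the threshold (2 where none passed) and the 3 genes most like each inhibitor and D cyclin. A listed gene that the rule would name is not reported here. On counts simulated from the chondrocytes (10592 genes) 70% of 2-fold and 95% of 4-fold changes were recovered. From proliferative chondrocytes (9946 genes) these were 51% and 91%. The simulated sums were independent, and neither smaller changes nor shared embryos were simulated.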

Additional observations from a re-analysis of the deposited data

Results flagged for a closer look

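Of 60 groups of 4 pseudobulks, 3 held a value farther from the others than Dixon's limit at 95% confidence, where chance gives about 1 in 20. Cdkn1a was at 58.7 CPM in p21 chondrocytes of tdT+ replicate 2, below 67.5 to 68.5 CPM in the other 3 p21 pseudobulks. Ccnd2 was at 241 CPM in control chondrocytes of tdT- replicate 2, below 304 to 315 CPM in the other controls. Cdkn1c was at 2166 CPM in resting p21 chondrocytes of tdT+ replicate 1, below 2544 to 2608 CPM in the others.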

How the results depend on the processing

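Of 197 alternatives to the counts of genes called, 193 called none of the 10. The other 4 called 1 each: Cdkn1c in resting chondrocytes with DESeq2 (1) and without the low-count filter (1), and Cdkn1a without that filter between fractions (1) and in the genotype by fraction test (1). The filter-free fits also called 437 genes in all in chondrocytes against 85, DESeq2 172, and cells below the median cycle share 3, with fewer cells. Summing the 2 fractions of a pool left 19. With the collection number as a replicate block, 82 genes passed in chondrocytes and 12, against 68, in proliferative cells, and 0 of the 10 in either. Both sorted fractions of a pool came from the same embryos, and their deviations in chondrocytes correlated at -0.26 to 0.25. Log2 differences that changed sign, all near 0, were Cdkn2d with a marker gate per cell (0.0651), below the median cycle share (0.11) and with 2 unnamed clusters of chondrocyte markers added (0.0230), Cdk4 in the same 3 settings (-0.0479, -0.0881 and -0.000739), and Ccnd1 (-0.0841) and Cdk6 (0.0218) below the median cycle share. The cause was not tested. Leaving out 1 library or pseudobulk gave -0.26 to 0.13 for Cdkn2d, -0.0306 to 0.16 for Ccnd1, -0.0077 to 0.19 for Cdk4 and -0.35 to 0.10 for Cdk6. With the marker gate 87 genes passed in chondrocytes (22 higher, 65 lower, against 7 and 78), and with the added clusters, an alternative chosen after seeing the data, 59 (12 and 47), none of them among the 10. Hypertrophic chondrocytes were not tested, having fewer than 3 pseudobulks per genotype. Depth limits Cdkn2c most, at 3 to 31 UMIs per chondrocyte pseudobulk.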

Other observations

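Chondrocytes of each library and genotype were divided at the median of WPRE, and the 10 genes were compared between cells above and below it as a description. In p21 cells Ccnd3 was higher in the cells with more WPRE in 4 of 4 libraries, by 0.45 ± 0.0042 (SD) on the log2(CPM + 1) scale, and Cdk4 in 4 of 4, by 0.32 ± 0.16. In control cells Cdk4 was also higher in 4 of 4 (0.15 ± 0.14), and Ccnd3 in 3 of 4 (0.30 ± 0.34). Cdkn1a was higher in the cells with more WPRE in 2 of 4 libraries for p21 and 1 of 4 for control cells.

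A cluster of 36 cells, all of them p21 and 94.4% from tdT- replicate 2, held Cdkn1a at 448 CPM, the highest level of any cluster, with the p53 targets Ccng1 at 88.5 CPM and Mdm2 at 146 CPM and with Cdkn1c at 1501 CPM. Its cells had a median of 5748 UMIs. That library held 784 p21 and 214 control cells in all, and no control cell fell in the cluster. The cluster rests on 1 library, and the share was not tested.

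Cells without a sex call were left out of both genotypes. They numbered 2747 in tdT- replicate 2, with a median of 1144 UMIs, and held Cdkn1a at 48.3 CPM and Cdkn1c at 3375 CPM.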
